A study of Rattus norvegicus with 18 samples.

Results

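The 41 genes described here had higher transcript levels 1 h after avoidance training than in untrained rats, in the dorsal hippocampus (dHC) and in the prelimbic cortex (PL) alike. They were chosen from 32662 gene rows by their measured values. L was defined as the log2 of the group mean in CPM (counts of a gene over the library's gene total, on a fixed scale) plus 0.5. A gene was kept if its 1 h mean was at least 2 CPM in both regions, if L at 1 h exceeded L in naive rats by at least 0.3 in both, and if in each region all 1 h pools lay above all naive pools. Of 12666 genes at or above 2 CPM at 1 h in both regions, 395 reached the 0.3 limit in dHC, 585 in PL and 103 in both. The requirement of no overlap left 53 genes. A set of 14 IDs was left out by the rule, of which 12 had met the conditions. The mirrored conditions, with 1 h pools below naive pools in both regions and a naive mean of at least 2 CPM, were met by 33 genes.

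Adult Long-Evans rats, an outbred strain, underwent inhibitory avoidance training, in which an animal is shocked once it enters a compartment and later stays out of it, and were killed 1 h or 6 d later. Untrained (naive) rats stayed in the home cage. The groups, without any transgene or drug, were dHC at 1 h, dHC at 6 d, PL at 1 h, PL at 6 d, naive dHC and naive PL, each with 3 pools of RNA from 5 rats. The home cage was the sole control, so that handling, a new place, shock and learning cannot be told apart.

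When neurons are strongly active, calcium entry and kinase cascades switch on a wave of transcription that needs no new protein synthesis. Its first products are mostly transcription factors, followed by signalling regulators and synaptic proteins, and many of these transcripts are short-lived. In the hippocampus and the medial prefrontal cortex such waves accompany new experience, stress and learning. The count tables and the reference tables used here do not pair the IDs of the 41 genes with names, so that no function is given for any of them, and the labelled regions could not be checked against marker genes. The genes are referred to by rank, from 1 to 41, in falling order of the smaller of their 2 regional rises in L. Genes of rank 1 and 2 are given by ID, together with 2 IDs (rank 16 and 28) singled out after their values were seen. The latter were singled out for PL values at 6 d that were low against 1 h. In extracts of whole tissue punches, a change in the number of cells of a type and a change in RNA per cell cannot be told apart.

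Library totals ran from 7463875 to 9215695 gene counts, so that 3 counts were worth 0.326 to 0.402 CPM. The dHC pools at 1 h, with 8914752 to 9136114 gene counts, were all deeper than the naive dHC pools, with 7687831 to 8874826. The part of this in the results was not tested. In PL the totals overlapped, at 8509697 to 8887687 counts at 1 h and 8145006 to 9215695 counts in naive pools. Values are CPM throughout and are not corrected for gene length, so that levels are compared between samples and not between genes.

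Among the genes kept, the rise at 1 h was modest in dHC and mostly larger in PL. The difference in L between 1 h and naive had a median of 0.40 in dHC, in a range of 0.30 to 0.86. In PL the median was 0.62 and the range 0.31 to 1.69. A difference of at least 0.5 was reached by 12 genes in dHC and by 26 in PL. A difference of at least 1, a doubling of the group mean plus 0.5 CPM, was reached by 0 in dHC and 3 in PL. These values chose the genes and are given as a description, with no test. The limit of 0.3 bounds them from below. The 12 left-out IDs that met the conditions are not among them.

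**Figure D1:**
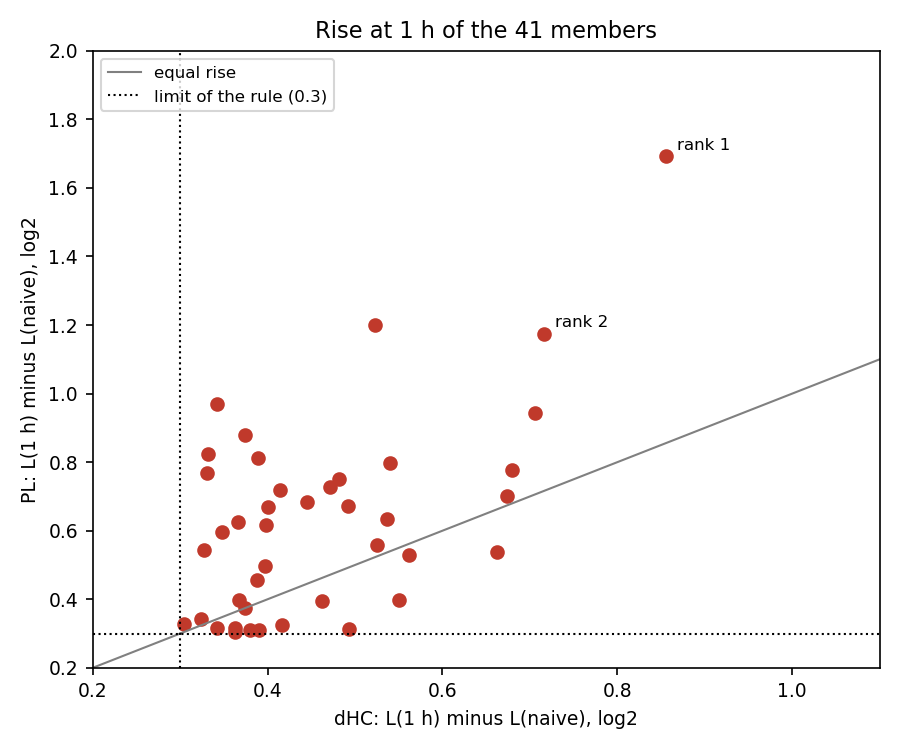
Rise in L (log2 of the group mean CPM plus 0.5) at 1 h over naive, with dHC on the horizontal and PL on the vertical axis, 1 point per gene. The dotted lines mark the limit of 0.3 and the grey line an equal rise; 29 of the 41 points lie above it, and rank 1 stands at 0.86 in dHC and 1.69 in PL.

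The rise was larger in PL for 29 genes and larger in dHC for 12. In 9 genes it was larger in PL by at least 0.3, with a median rise in L of 0.88 in PL and 0.39 in dHC. No gene had a rise larger in dHC by that much, the largest such difference being 0.18. For 17 genes the regions differed by at most 0.1. These counts describe the values used by the rule, and the difference between regions was not tested at 1 h.

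Near the limit, the last 3 genes inside had a smaller rise of 0.31, 0.31 and 0.30. The first 3 genes outside that met every other condition stood at 0.30, 0.30 and 0.30. To 4 digits, rank 41 stood at 0.3045 and the first gene outside at 0.2998.

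Across all tested genes, edgeR's quasi-likelihood test called 0.217% higher at 1 h than in naive dHC and 0.782% higher in PL, at a Benjamini-Hochberg adjusted p under 0.05. Of the 41 genes, 5 were among those called in dHC and 20 among those called in PL. All 5 called in dHC were also called in PL, and 21 genes were called in neither region. The rule used this contrast, so nothing is read from these counts. All 41 passed the filter on low counts in every comparison under the main settings. Naive means were under 2 CPM for 2 of them, in both regions.

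ENSRNOG00000015719, rank 1, had 13.0, 10.5 and 10.2 CPM in the naive dHC pools, 21.5, 17.1 and 23.5 CPM at 1 h, and 7.57, 10.1 and 8.99 CPM at 6 d. In PL it had 25.1, 29.4 and 22.8 CPM in naive pools, 99.9, 71.0 and 82.3 CPM at 1 h, and 24.6, 17.8 and 23.0 CPM at 6 d. The 1 h pools were highest in both regions, and in dHC all 6 d pools were below all naive pools. The fitted change at 1 h against naive was a fold of 1.85 in dHC and 3.25 in PL, the largest of the 41 genes in PL. At 6 d its log2 fold change against naive was -0.32 in dHC (SE 0.16, edgeR adjusted p = 0.892) and -0.25 in PL (SE 0.14, edgeR adjusted p = 0.999). Neither passed the test.

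ENSRNOG00000060898, rank 2, was scarce. It had 1.13, 0.911 and 1.36 CPM in naive dHC pools, 2.13, 1.68 and 2.74 CPM at 1 h and 2.52, 1.25 and 2.09 CPM at 6 d. In PL it had 0.543, 0.880 and 0.491 CPM in naive pools, 1.80, 2.35 and 2.06 CPM at 1 h and 0.330, 0.938 and 0.458 CPM at 6 d. In PL the 1 h pools stood apart from both other groups, while in dHC the 6 d pools overlapped both others. These values rest on 15 to 25 counts per pool at 1 h and 7 to 12 in naive dHC, and on 16 to 20 counts at 1 h and 4 to 8 in naive PL. At 6 d, PL pools had 3 to 7 counts, at or near the limit of 3. The log2 fold change at 6 d against naive was 0.76 in dHC (SE 0.36, edgeR adjusted p = 0.878) and -0.22 in PL (SE 0.52, edgeR adjusted p = 0.999).

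**Figure D2:**
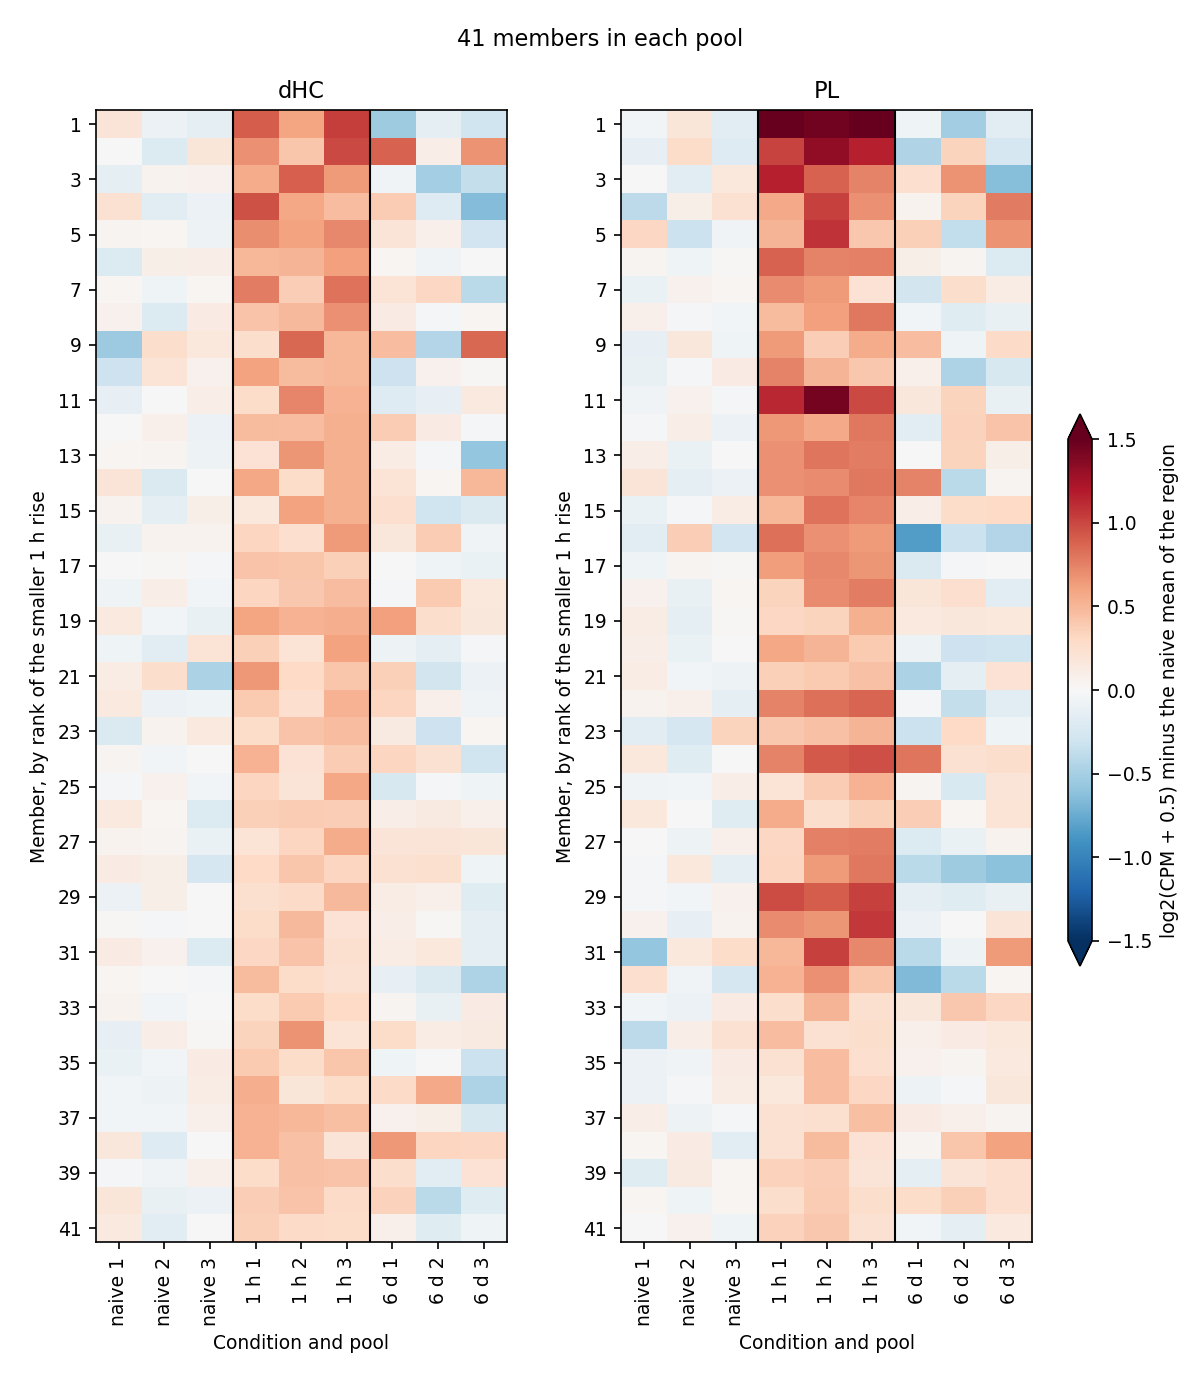
Each gene (rows, by rank) in each pool (columns) as log2(CPM + 0.5) minus L of the naive group of the region, with dHC left and PL right. Red is above and blue below the naive mean. The 1 h columns are red throughout, as the rule demands, and the 6 d columns are mixed.

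The summed level of the 41 genes was 999 to 1044 CPM in dHC pools at 1 h, against 739 to 763 CPM in naive dHC pools. In PL it was 929 to 956 CPM at 1 h, against 610 to 624 CPM in naive pools. At 6 d the sum was 727 to 809 CPM in dHC and 622 to 649 CPM in PL. The 6 d sums lay far below the 1 h sums in both regions. For each gene the rule required high 1 h pools and low naive pools. By itself this favours 6 d sums below those at 1 h and above those of naive pools. Abundant genes weigh most in these sums. Of the 6 d dHC pools, 1 lay above the naive range, 1 within and 1 below it, whereas 2 of the 3 PL pools at 6 d lay just above it.

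By 6 d no gene of the 41 was called different from naive in either region. The pools at 6 d took no part in choosing the genes. The naive pools did, and were required to be low, which by itself favours a 6 d level above naive. Over all genes tested, 0% were called at 6 d against naive in dHC and 0% in PL by edgeR. Over the 41 genes the log2 fold changes had medians of 0.03 in dHC and 0.07 in PL, where those of all tested genes were 0.00 and -0.00. The dHC median was 0.01 without 6 d pool 1, 0.08 without 6 d pool 3, and 0.05 without naive pool 1 or naive pool 2. The PL median was -0.01 without naive pool 1 and 0.02 without 6 d pool 3. In each region 25 genes were above 0 and 16 below. At an unadjusted p under 0.05 there were 3 of the 41 in dHC, beside 5.62% of all genes tested, and 4 of the 41 in PL, beside 3.47%. DESeq2 called 0 of the 41 in either region, with 0 in dHC and 2 in PL at an unadjusted p under 0.05.

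The precision of this comparison was limited. For the fold change at 6 d, 25 of the 41 genes in dHC and 19 in PL had a 95% interval wholly between -0.5 and 0.5 on the log2 scale. Between -1 and 1 there were 39 and 36. Of all tested genes, 72.2% in dHC and 73.3% in PL had one between -0.5 and 0.5. The median standard error was 0.15 in dHC and 0.16 in PL for the 41 genes, against 0.11 in each region for all tested genes.

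**Figure D3:**
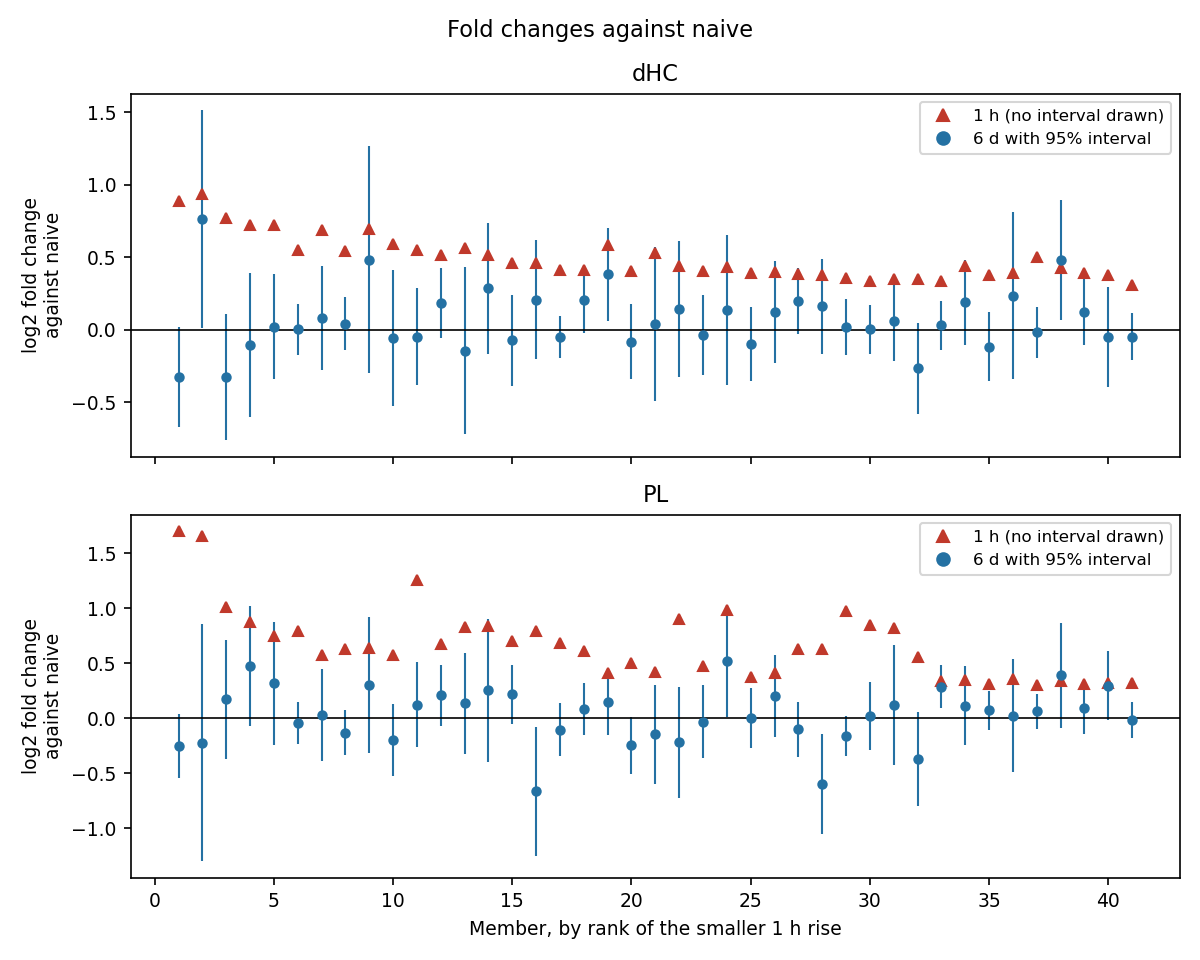
Fitted log2 fold change against naive of each gene, by rank, at 1 h (triangles, no interval drawn) and at 6 d (circles with 95% intervals), with dHC above and PL below. The 6 d circles scatter around 0, with medians of 0.03 in dHC and 0.07 in PL, and none passes the test.

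The median spread between pools was widest at 6 d in both regions. The median coefficient of variation over the 41 genes was 8.30% in naive dHC, 10.3% in dHC at 1 h and 14.8% in dHC at 6 d. In PL it was 8.38% in naive pools, 11.0% at 1 h and 14.3% at 6 d. For the 12666 genes at or above the minimum it was 7.14%, 6.38% and 8.48% in dHC, and 7.16%, 6.79% and 8.23% in PL, in the same order of naive, 1 h and 6 d. The rule required naive and 1 h pools not to overlap and put no such condition on the 6 d pools, and the difference in spread was not tested.

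Single pools at 6 d differed in how the 41 genes lay against the naive range. In dHC, pool 1 had 23 of them above all naive pools and 5 below, pool 2 had 14 and 12, and pool 3 had 11 and 17. The corresponding shares of the 12666 genes were 30.2% above and 23.5% below in pool 1, 26.0% and 32.1% in pool 2, and 22.2% and 30.0% in pool 3. Pool 1 thus had the most of the 41 genes above the naive range and pool 3 the most below it. In the wider set pool 1 also had the highest share above, and pool 2 the highest share below. In PL the pools had 13 above and 11 below, 15 and 15, and 20 and 12, with shares of 23.1% to 34.9% above and 20.6% to 26.3% below in the wider set. In dHC, 4 of the 41 had all 6 d pools above all naive pools and 2 had all below. In PL the counts were 4 and 3. The background of genes with no overlap was 4.43% higher and 5.22% lower in dHC, and 5.14% higher and 3.02% lower in PL.

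At 6 d, 18 genes in dHC had a mean below their naive mean, 22 lay between the naive and the 1 h mean, and 1 was above its 1 h mean. In PL these counts were 16, 24 and 1. For 8 genes the 6 d mean was below naive in both regions. The gene above its 1 h mean was the same one in both regions, of rank 38. It had 6.69, 5.22 and 5.18 CPM in dHC pools at 6 d, against 4.62, 3.51 and 4.07 CPM in naive ones. In PL it had 3.19, 4.29 and 4.93 CPM at 6 d, against 3.15, 3.41 and 2.70 CPM in naive pools. The 6 d pools of dHC were all above the naive pools, whereas those of PL overlapped them. The log2 fold change against naive was 0.48 in dHC (SE 0.20, edgeR adjusted p = 0.833) and 0.39 in PL (SE 0.23, edgeR adjusted p = 0.999), neither past the threshold.

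Set directly against 1 h, 12 of the 41 genes were lower at 6 d in dHC by edgeR, and 18 in PL. The share of all tested genes called lower was 0.699% in dHC and 1.05% in PL. No gene of the 41 was called higher, beside 0.405% of all tested genes in dHC and 1.16% in PL. The 1 h pools were required by the rule to be high, which by itself favours a lower value at 6 d, and the counts are read no further. The fall passed in both regions for 7 genes, in dHC alone for 5, in PL alone for 11 and in neither for 18. The same split was not counted over all tested genes, so nothing is read from it. The difference of the fall between regions was not tested. Median log2 fold changes at 6 d against 1 h were -0.36 in dHC and -0.54 in PL. Beside them stand medians at 1 h against naive of 0.44 and 0.63, from comparisons that share the 1 h pools. The dHC count of 12 was 5 without 6 d pool 2, 6 without 1 h pool 1 and 5 without 1 h pool 3. It was 20 with no filter on low counts or with a term for the replicate number. The number called in either direction over all genes tested moved as well, from 158 in the main fit. It was 40, 29 and 18 without those pools in the same order, 623 with no filter and 549 with the replicate term.

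ENSRNOG00000015719 fell most in PL, changing by -1.95 on the log2 scale at 6 d against 1 h (SE 0.13, edgeR adjusted p = 5.04e-10). In dHC it was -1.21 (SE 0.15, edgeR adjusted p = 0.000351). ENSRNOG00000060898 also fell in PL, changing by -1.88 on the log2 scale (SE 0.41, edgeR adjusted p = 0.0142). That call was lost without 6 d pool 1, 6 d pool 3 or 1 h pool 2 of PL, with adjusted p between 0.0611 and 0.0746 in a range of 0.00211 to 0.0746 over all alternatives that gave one. In dHC its change was -0.17 (SE 0.31, edgeR adjusted p = 0.863). Both genes were ranked first by their rise at 1 h, and the same 1 h pools enter these comparisons. That by itself favours a fall, so the p-values are read no further.

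The gene of rank 6 had 43.0, 53.2 and 53.4 CPM in naive dHC pools, 70.9, 71.0 and 76.4 CPM at 1 h and 51.0, 47.9 and 50.0 CPM at 6 d. In PL it had 33.5, 31.2 and 33.1 CPM in naive pools, 60.6, 55.1 and 55.4 CPM at 1 h and 34.6, 33.5 and 28.2 CPM at 6 d. In both regions the 6 d and naive pools overlapped and lay below all 1 h pools. Its log2 fold change at 6 d against naive was 0.00 in dHC (SE 0.08, edgeR adjusted p = 0.997) and -0.04 in PL (SE 0.09, edgeR adjusted p = 0.999).

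Besides ranks 1 and 2, the genes with the largest fall in PL at 6 d against 1 h were ENSRNOG00000023546 and ENSRNOG00000019822, of rank 16 and 28. ENSRNOG00000023546 had 2.60, 3.96 and 2.33 CPM in naive PL pools, 5.63, 5.05 and 4.92 CPM at 1 h and 1.43, 2.28 and 2.06 CPM at 6 d. ENSRNOG00000019822 had 4.56, 5.28 and 4.17 CPM in naive PL pools, 5.96, 7.52 and 8.46 CPM at 1 h and 3.41, 3.08 and 2.86 CPM at 6 d. For both genes all 6 d pools of PL lay below all naive pools. The fall at 6 d against 1 h was -1.45 for the first (SE 0.26, edgeR adjusted p = 0.00227) and -1.23 for the second (SE 0.20, edgeR adjusted p = 0.00114), on the log2 scale. The rule required high 1 h pools, and both genes were singled out for PL values at 6 d that were low against 1 h. Each of these choices favours a fall, so nothing is read from those p-values. Against naive PL the log2 fold changes at 6 d were -0.66 (SE 0.28, edgeR adjusted p = 0.999) and -0.60 (SE 0.22, edgeR adjusted p = 0.999), which did not pass.

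In dHC the same 2 genes had other values. ENSRNOG00000023546 had 4.62, 5.20 and 5.21 CPM in naive dHC pools, 6.39, 6.04 and 8.10 CPM at 1 h and 5.68, 6.70 and 4.81 CPM at 6 d. ENSRNOG00000019822 had 8.68, 8.45 and 6.57 CPM in naive dHC pools, 9.87, 10.7 and 9.96 CPM at 1 h and 9.34, 9.42 and 7.52 CPM at 6 d. The 6 d pools of dHC overlapped the naive pools for both genes. The difference between regions in the change at 6 d against naive, dHC minus PL, was 0.88 and 0.77 on the log2 scale. Neither passed an edgeR test of that difference (adjusted p = 1.00 each), which called 0 of 14784 genes. At an unadjusted p under 0.05 there were 558 of all genes tested, or 3.77%, and 2 of the 41, which are these 2 genes. They were singled out for PL values at 6 d that were low against 1 h. Those PL values enter this test, so nothing is read from that count.

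**Figure D4:**
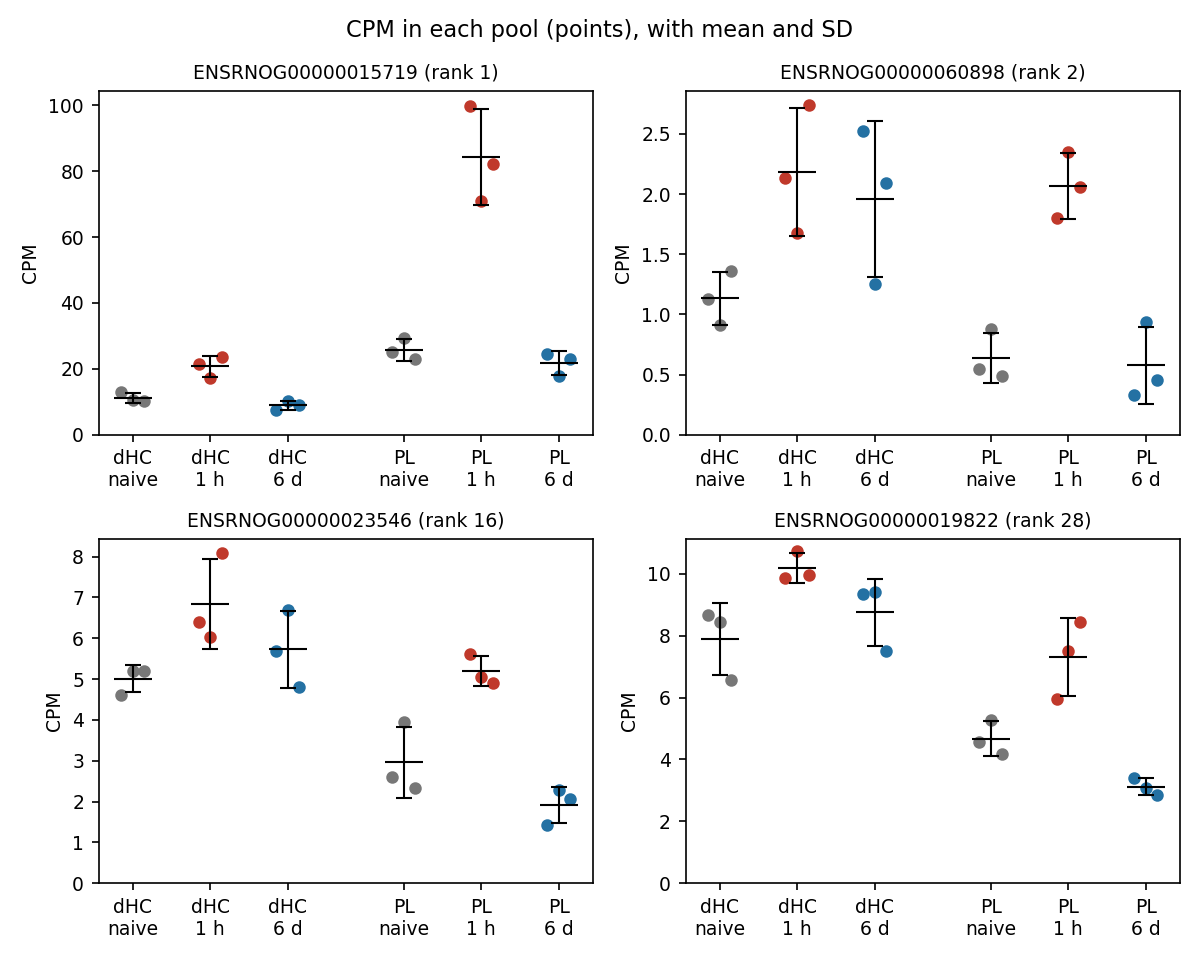
CPM in each pool (points) with the group mean and SD (bars, n = 3 pools) for the 4 genes given by ID, in the order naive, 1 h and 6 d within dHC and PL. In PL the 1 h pools of each gene lie above all naive and 6 d pools, and for ranks 16 and 28 the 6 d pools lie below the naive ones.

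The regional level at 6 d was measured in pools that the rule did not use. Of the 41 genes, 19 were called higher in dHC than in PL at 6 d and 5 lower, by edgeR over all 18 libraries. That is 58.5% called in either direction, beside 45.8% of all 14784 genes tested, of which 23% were higher and 22.8% lower in dHC. The median log2 difference, dHC minus PL, was 0.37 for the 41 genes and -0.00 for all tested genes. Individual differences ran from -1.38 to 2.40. Leaving out any one of the 6 d pools gave 20 to 24 called genes of the 41, beside 6264 to 6316 of all genes tested. The estimate of spread also drew on the naive and 1 h pools, which the rule required not to overlap within each region. With only the 6 d groups fitted, 20 of the 41 genes were called. Over all genes tested, that fit called 5809 and the main fit 6774.

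The largest regional difference belonged to the gene of rank 30. It had 58.6, 55.1 and 49.3 CPM in dHC pools at 6 d, against 9.47, 10.0 and 11.6 CPM in PL pools at 6 d. The log2 difference was 2.40 (SE 0.11, edgeR adjusted p = 3.63e-16), a fold of 5.27. In naive pools it had 55.2, 53.9 and 54.4 CPM in dHC, against 10.5, 9.24 and 10.4 CPM in PL. The pools of the regions were far apart in both conditions. The gene of rank 17 differed by 1.78 at 6 d (SE 0.08, edgeR adjusted p = 2.94e-16), with 47.2, 45.0 and 43.9 CPM in dHC and 12.0, 13.9 and 14.0 CPM in PL. Both genes, and that of rank 10 below, were picked for their values in this comparison. Their p-values are therefore given as a description.

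On the PL side, the gene of rank 10 had 3.03, 4.09 and 3.94 CPM in dHC pools at 6 d, against 11.7, 7.90 and 9.28 CPM in PL pools. Its log2 difference, dHC minus PL, was -1.38 (SE 0.19, edgeR adjusted p = 9.26e-07). ENSRNOG00000015719 was also lower in dHC at 6 d, by -1.29 on the log2 scale (SE 0.18, edgeR adjusted p = 6.99e-07). The pools of the regions did not overlap for either gene. ENSRNOG00000060898, ENSRNOG00000023546 and ENSRNOG00000019822 were higher in dHC at 6 d, with log2 differences of 1.79 (SE 0.41, edgeR adjusted p = 0.000674), 1.60 (SE 0.24, edgeR adjusted p = 2.73e-06) and 1.49 (SE 0.18, edgeR adjusted p = 1.34e-07). ENSRNOG00000023546 and ENSRNOG00000019822 were singled out for PL values at 6 d that were low against 1 h. Those values enter this test, so nothing is read from the p-values of these genes.

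The naive and 1 h pools, whose values within each region were used by the rule, are set beside those at 6 d as a description, with no test. Of the 19 genes called higher in dHC at 6 d, 18 had all naive dHC pools above all naive PL pools, and 15 had all 1 h dHC pools above all 1 h PL pools. For the 3398 genes called higher in dHC among all tested, these shares were 88.0% in naive pools and 85.9% at 1 h. All 5 genes called lower in dHC at 6 d lay lower in dHC without overlap in naive pools and at 1 h, beside 85.4% and 85.9% of the 3376 genes called lower among all tested. Among all 41 genes, 23 were higher in dHC than in PL without overlap in naive pools and 7 lower, beside a background of 28.4% and 25.9%. At 1 h 19 were higher and 9 lower, beside 28.4% and 28.9%. At 6 d 16 were higher and 5 lower, beside 24.6% and 25.9%. By group mean, 31 were higher in dHC in naive rats, 26 at 1 h and 30 at 6 d, and the median L difference, dHC minus PL, was 0.37, 0.18 and 0.31 in the same order.

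**Figure D5:**
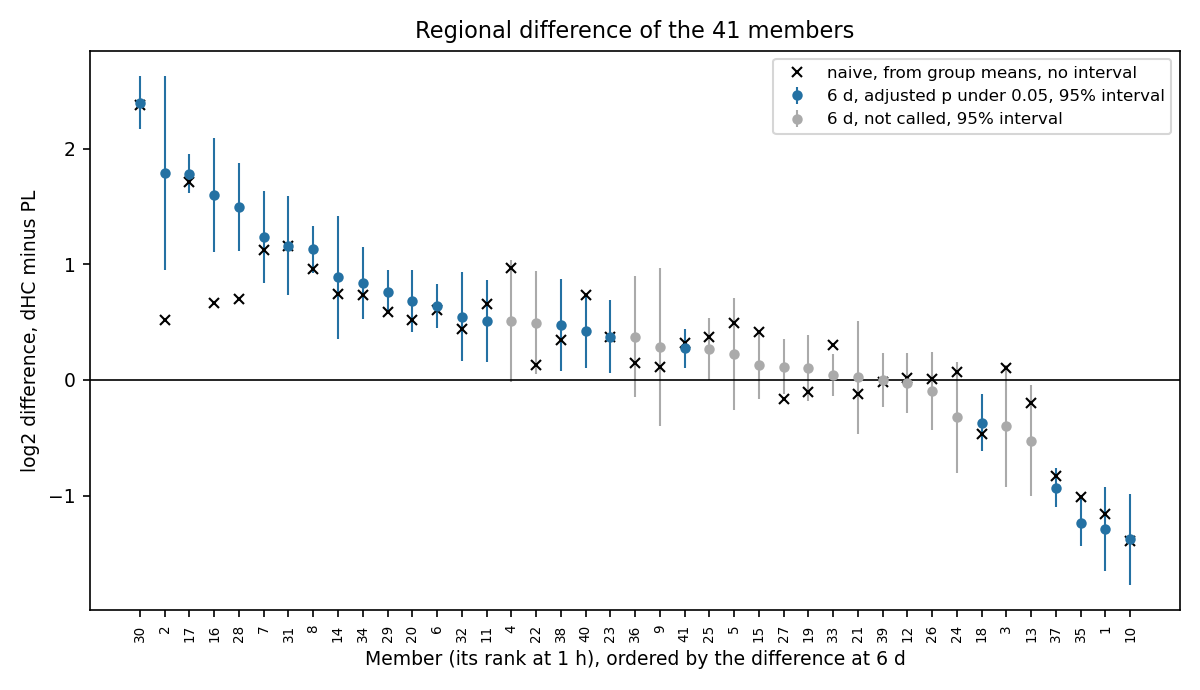
Log2 difference between dHC and PL at 6 d for each gene (circles with 95% intervals, blue where the adjusted p is under 0.05), ordered by size, with the difference between naive group means as crosses. The 19 genes called higher in dHC stand toward the left and the 5 called lower toward the right. Ranks 2, 16 and 28 have crosses well below their circles, whereas others, such as ranks 3 and 4, have crosses above theirs. The crosses are differences in L, whose added constant shrinks them at low levels, whereas the circles are fitted values. Part of the gap of ranks 2, 16 and 28 is therefore a matter of scale, chiefly for rank 2, which was scarce. The edgeR test of the regional difference in change at 6 d against naive called 0 of 14784 genes.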

How the data were processed

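RNA of dHC and PL was sequenced in 18 libraries of 6 groups, 3 pools per group. Per the labels' protocols, 200 ng of total RNA entered a stranded kit selecting polyadenylated RNA, with 12 PCR cycles and paired reads of 150 nt, and c-Fos was measured by RT-PCR in the individual animals before pooling. The authors deposited read counts for each Ensembl gene ID, whole numbers without normalization. The submitters' processing notes name Rnor_6.0, Picard 1.126, bedtools 2.17.0 and DESeq2. For the aligner, counting program, annotation and strand setting, nothing is given in the sources used here, so that overlapping, antisense or near-identical genes are uncertain. The 5 rows of reads given to no gene (unaligned reads 42.0% to 51.8% and reads outside gene models 10.1% to 13.6% of a library) were left out. The reference table, of assembly GRCr8, matched 0 IDs. Gene and marker lists were therefore not tested.

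All 18 replicate pairs differed by more than sampling noise (1.67 to 4.98 in chi-square over its degrees of freedom). The pools are described as independent, each of 5 animals. No batch or date is named, and whether dHC and PL pools came from the same rats is not stated. Tests used edgeR 4.0.16 in R 4.3.3 (quasi-likelihood F test, TMM, filterByExpr, Benjamini-Hochberg over all genes tested, threshold 0.05), on the 9 libraries of a region, or on all 18 for dHC against PL. The procedure was run on simulated data with planted changes larger than most of those of the 41 genes. That run does not show how well smaller changes are found. DESeq2 1.42.0, RLE factors, no filter, only the groups compared, a term for the replicate number and leaving out each pool were tried as alternatives. The regional test of the change at 6 d against naive was added after the data were seen. The rule for named genes gave the first 2 ranks by ID; 2 further IDs and the genes shown by rank alone were picked after their values were seen. The 41 genes, and all lists, were chosen with earlier results of these data known. The limit of 3 counts covers counting error only.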

Additional observations from a re-analysis of the deposited data

How the results depend on the processing

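The rule itself gave 41 genes, 97 with a limit of 0.2 and 11 with a limit of 0.5. Without one of the naive or 1 h pools it gave 42 to 59, of which 33 to 40 were among the 41. With the other settings of the rule (TMM library sizes, a minimum of 1 or 5 CPM, a constant of 0.1 or 1) the number ran from 33 to 47. At 6 d against naive, the count of 0 in dHC and in PL was 0 in each of the 11 alternatives run per region. With only the groups compared, 1 of the 41 genes was not tested in PL. The counts of the 41 genes called in dHC against PL at 6 d and in PL at 6 d against 1 h stayed within 1.5 times their value. The dHC count of 12 at 6 d against 1 h was 20 with no filter on low counts, 20 with the replicate block, and 5 to 14 with one pool left out. DESeq2 called 11 there and gave no adjusted p for 19 of the 41. Over all genes tested, the main fit called 158 in that comparison. The alternatives called 623 with no filter, 549 with the block, 18 to 343 with one pool left out and 189 with DESeq2. No called change of the 41 genes turned its sign. The numbers of the pools are not stated to mark shared animals, batches or days. Deviations of same-numbered pools correlated between -0.15 and 0.24, and in 0 of the 5 comparisons was every pair over 0.1. For dHC at 6 d and naive, 6 of 6 pools were closest to their own number, and in the other comparisons 0 to 3 of 6, as a hint from the data. With the block, the counts were 0 in both regions at 6 d against naive, 23 for dHC against PL and 21 for PL at 6 d against 1 h. Over all genes tested, the block gave 3 in dHC and 0 in PL at 6 d against naive. It gave 6815 for dHC against PL and 423 for PL at 6 d against 1 h. Depth limits the genes of low level, since 3 counts were worth up to 0.402 CPM.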
